A study of Mus musculus with 10 samples.

Results

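The proteasome genes of mouse melanoma cells were compared between wild-type B16-F1 cells and B16-F1ΔFOXC2 cells. Members were chosen by symbol, as genes named Psma, Psmb, Psmc, Psmd, Psme, Psmf or Psmg with a number, and 46 of the 10735 genes in the deposited table matched. Of these, 2 lie in genome regions that the choice leaves out (chromosome 1 from 30 to 70 Mb, chromosome 2 from 150 Mb and chromosome 8 from 115 Mb), and 44 members remained. They comprised 30 constitutive subunits, 3 interferon-inducible genes (Psmb10, Psme1 and Psme2) and 11 other genes, mostly assembly chaperones and activators. Psmb8 and Psmb9, the other inducible catalytic subunits, were not analysed here. B16-F1 is a pigmented melanoma line from C57Bl/6 mice. The ΔFOXC2 cells derive from that line and, by their genotype label, lack FOXC2, a forkhead transcription factor; whether they are 1 clone is not given in the sources used here. Each group had 5 libraries from unstimulated cultures, lysed at about 90% confluence after 24 h in RPMI-1640 with 10% serum, at passages 5 to 10. Foxc2 itself was not analysed here, so the genotypes stand as labelled.

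The proteasome is the protease that degrades most ubiquitin-tagged proteins in the cytosol and nucleus. Its barrel, the 20S core, is built of outer alpha rings and inner beta rings, and only some beta subunits cut peptides. The 19S cap binds ubiquitin chains, removes them and unfolds the substrate with a ring of ATPases. Under interferon the catalytic beta subunits are replaced by inducible counterparts, which forms the immunoproteasome, and the PA28 alpha and beta activator (Psme1 and Psme2) opens the core. Both are known for shaping the peptides that MHC class I molecules show to T cells, including those from melanoma antigens.

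Values are FPKM, fragments scaled by transcript length and by all fragments mapped in a library, so levels of different genes can be set side by side per length. The sum of FPKM per library was 240441 to 251273, and the read depth is unknown. Across the tested genes the Pearson correlation of log2 values was 0.982 to 0.986 within groups and 0.954 to 0.965 between them. All 7 melanocytic markers were present, and their summed level was 3180 to 3650 FPKM in wild-type libraries and 3820 to 4210 in ΔFOXC2 cells. Of 7 leukocyte markers only Cd68 was listed, at 0.397 to 0.956 FPKM in wild-type libraries and 1.04 to 1.72 in ΔFOXC2 cells. Of 4 fibroblast markers only Col1a2 was listed, at 0.823 to 0.899 FPKM in wild-type libraries and 0.581 to 0.931 in ΔFOXC2 cells, and of 3 endothelial markers none was listed. No listed gene averaged under 0.5 FPKM in both groups, so a marker that was not listed may be present below that level. In bulk RNA, fewer cells of a type and less RNA per cell cannot be told apart. Differences are wild type minus ΔFOXC2 on the log2 scale of FPKM + 0.1, tested with limma, and p-values are adjusted over the 10570 genes averaging 0.5 FPKM or more. Nothing says that the replicates were fully independent cultures, so the p-values reflect the spread between these samples, which may be technical.

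The members that passed the test did so with differences under 1.5-fold. All 3 inducible genes were lower in the wild type. Of the 30 constitutive subunits, 14 were higher in the wild type, 0 were lower and 16 did not pass the test. By limma, 0 of the 43 tested members reached both 1.5-fold and an adjusted p of at most 0.05, where 8.62% of all tested genes did (3.65% higher and 4.97% lower). Before adjustment 24 members had a p of 0.05 or less, 20 of them higher and 4 lower, against 49.4% of all tested genes in either direction. With the adjusted p alone, at any fold, 18 members (41.9%) were higher and 3 (6.98%) lower in the wild type, against 20.8% and 20.7% of all tested genes and 41.6% in either direction. The median log2 difference was 0.10 over the 43 members, 0.11 over the constitutive subunits and 0.01 over all tested genes. Every wild-type library lay above every ΔFOXC2 library in 14 members and below in 2, against 14.9% and 15.1% of all tested genes. The members that passed at any fold are called higher or lower below. The remaining member, Psme2b, fell under the filter on low values.

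**Figure D1:**
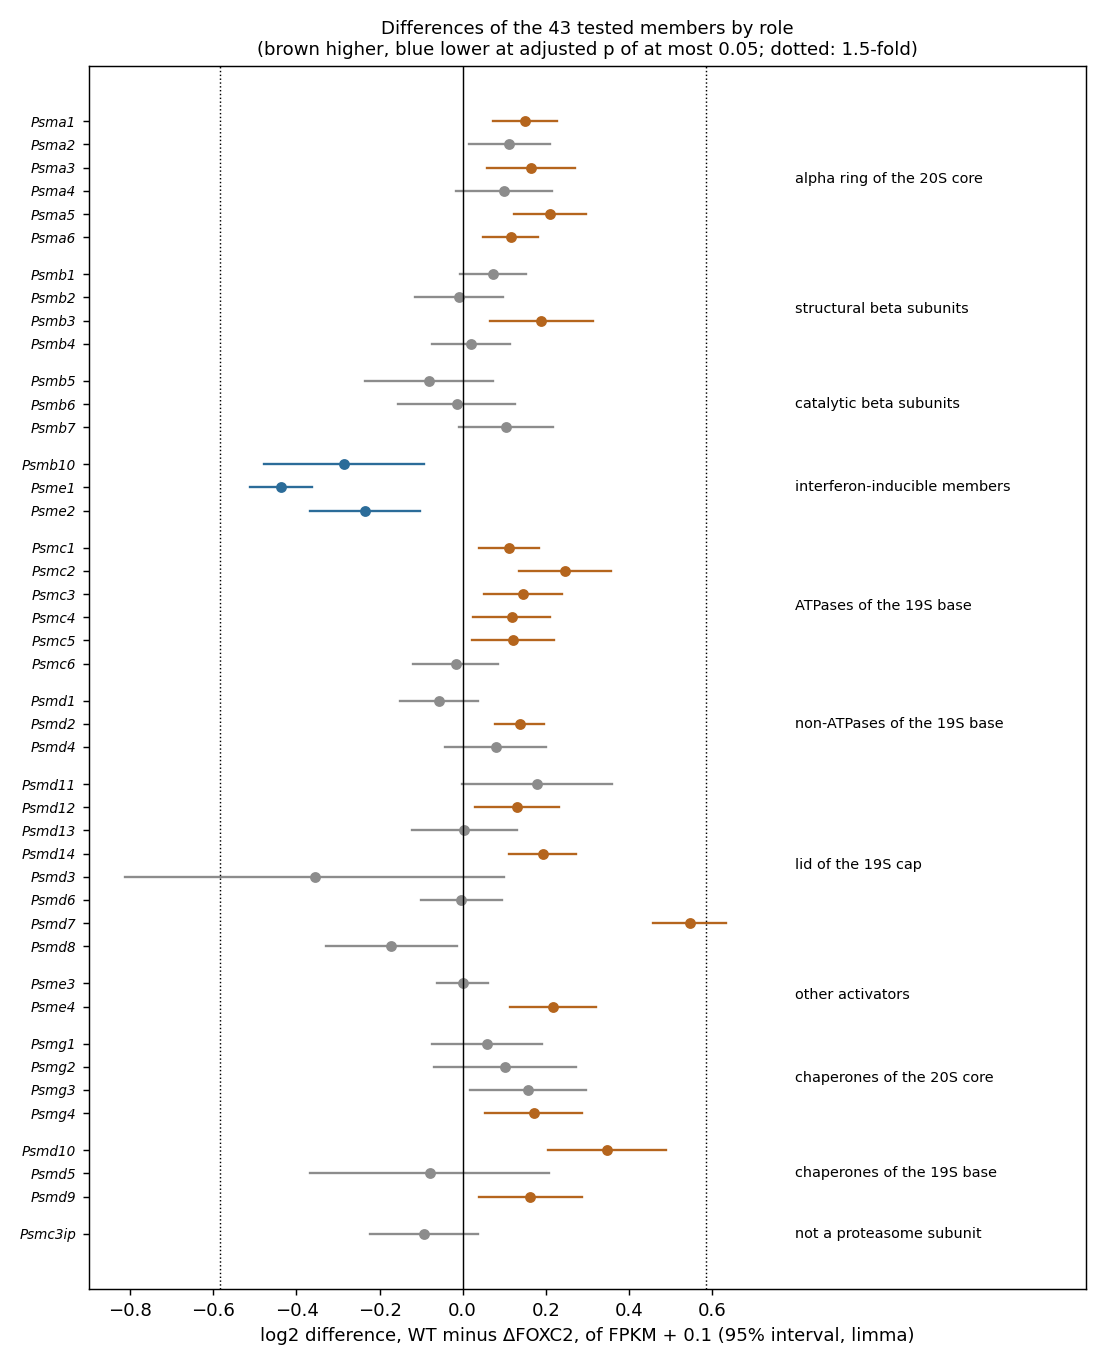
Log2 difference (wild type minus ΔFOXC2, horizontal axis) of each of the 43 tested members with its 95% interval, grouped by role, with dotted lines at 1.5-fold. Psmb10, Psme1 and Psme2 lie left of 0, 18 members in brown lie right of it, and Psmd7 at 0.55 lies closest to the 1.5-fold line.

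Of the inducible genes, Psme1 showed the clearest separation. It encodes the alpha subunit of the PA28 activator (ENSMUSG00000022216.17, chromosome 14, 55578123 to 55581529, plus strand, GRCm38). The wild-type libraries had 23.6, 22.4, 23.4, 22.0 and 22.9 FPKM, and the ΔFOXC2 libraries 31.2, 31.3, 29.7, 31.2 and 31.5. Every wild-type library was below every ΔFOXC2 library, as for 15.1% of all tested genes, and the log2 difference was -0.44 (SE 0.034, adjusted p = 2.47e-06). Psme2, the beta subunit of the same activator, lies 5911 bases away on the opposite strand (ENSMUSG00000079197.10, 55587441 to 55591113). It had 22.7, 22.6, 21.6, 21.4 and 20.9 FPKM in wild-type libraries and 23.2, 26.9, 26.7, 23.5 and 28.7 in ΔFOXC2 cells. The groups did not overlap, but ΔFOXC2 replicates 1 and 4 came close to the wild type (log2 -0.24, SE 0.061, adjusted p = 0.00908). Other genes on chromosome 14 were lower in the wild type as well: the 92 tested genes within 5 Mb of Psme1 had a median log2 difference of -0.14, with 21 of them above 0. With each chromosome centred on its own median, the difference was -0.29 for Psme1 (adjusted p = 7.79e-05) and -0.09 for Psme2 (adjusted p = 0.269).

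Psmb10 encodes beta2i, the inducible counterpart of the trypsin-like subunit Psmb7 (ENSMUSG00000031897.9, chromosome 8, 105935735 to 105938444, minus strand). It had 5.47, 5.43, 4.94, 4.61 and 5.10 FPKM in wild-type libraries and 5.29, 6.59, 5.75, 7.37 and 6.36 in ΔFOXC2 cells. The ranges overlapped through ΔFOXC2 replicate 1 (log2 -0.28, SE 0.088, adjusted p = 0.0225). Dropping wild-type replicate 4 (adjusted p = 0.0557) or ΔFOXC2 replicate 2 (0.0509) ended the call. The antisense gene Gm16156 spans the whole of Psmb10, and although the library kit marks strand, no source used here says whether reads were assigned by it, so reads of the pair cannot be told apart. The difference of Psmb10 ran opposite to that of its chromosome. The 76 tested genes within 5 Mb had a median log2 difference of 0.41, 72 of them were above 0, and all 76 lay above Psmb10. With chromosomes centred the difference of Psmb10 was -0.64 (adjusted p = 0.000175), past 1.5-fold.

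**Figure D2:**
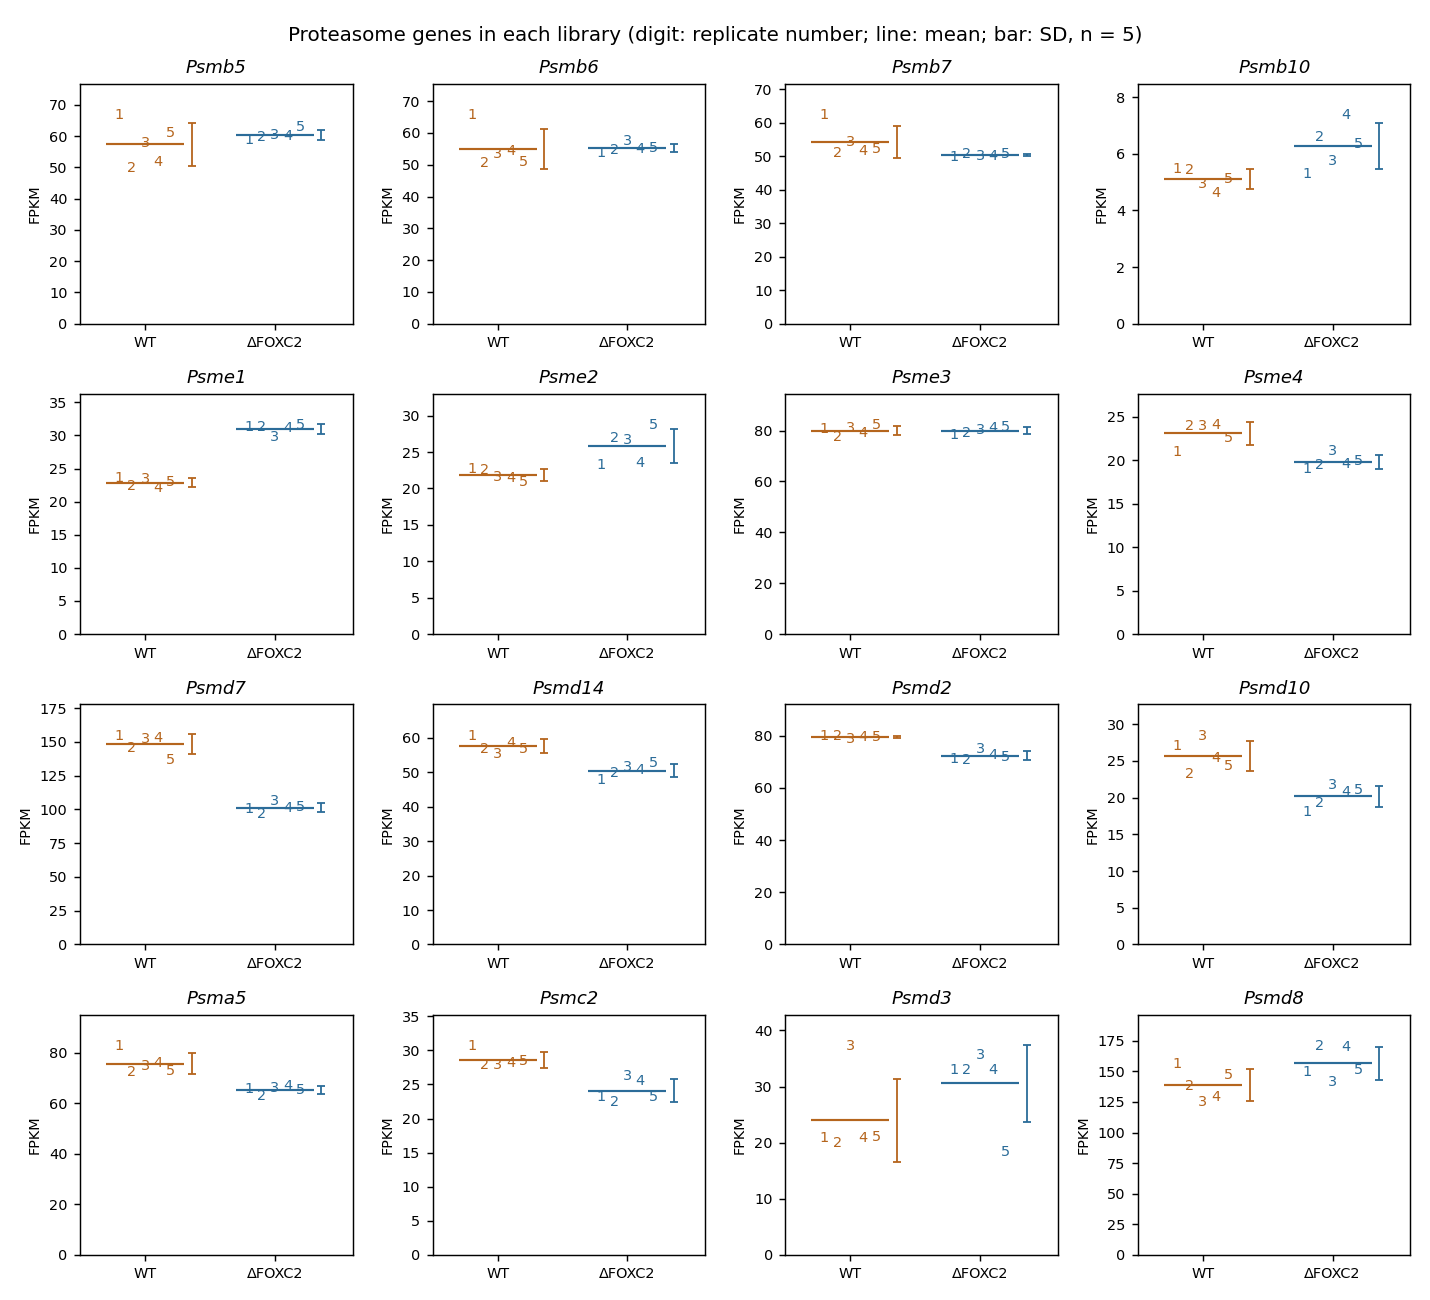
FPKM (vertical axes, from 0) of 16 members in the wild-type and ΔFOXC2 libraries, with each digit a replicate number, each line a mean and each bar the SD (n = 5). Psme1 and Psmd7 are fully separated in opposite directions, the 2 groups of Psme3 coincide, and Psmd3 has 1 library of each group at the level of the other group.

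Ratios within a library depend little on how the library was scaled. They set Psmb10 against Psmb7, the constitutive subunit whose place it takes, and inducible genes against other members. The ratio of Psmb10 to Psmb7 was 0.0893, 0.108, 0.0928, 0.0911 and 0.0997 in the wild-type libraries and 0.108, 0.132, 0.117, 0.149 and 0.127 in the ΔFOXC2 libraries. The groups met at wild-type replicate 2 and ΔFOXC2 replicate 1, and the ratio was lower in the wild type by a log2 difference of -0.39 (exact permutation test over samples, two-sided p = 0.0159, adjusted p = 0.0265 over the 5 ratios tested). The other 4 ratios, which pair no gene with the subunit it replaces, were added after the values had been seen. Psme3 itself barely differed (log2 0.0004), so the ratios to it largely repeat the differences of Psme1 and Psme2. Psme1 over Psme3, a related nuclear activator that is not induced by interferon, was 0.279 to 0.294 in the wild type and 0.371 to 0.399 in ΔFOXC2 cells. Those ranges were far apart (log2 -0.44, exact permutation p = 0.00794, the smallest this design allows, adjusted p = 0.0265). Psme2 over Psme3 was 0.255 to 0.292 against 0.291 to 0.353 (log2 -0.24, exact permutation p = 0.0159, adjusted p = 0.0265), with an overlap at the edges, and -0.09 with chromosomes centred (exact permutation p = 0.198). Psmb10 over Psmb5 (log2 -0.20, exact permutation adjusted p = 0.0952) and over Psmb6 (log2 -0.27, exact permutation adjusted p = 0.0695) did not pass. Before adjustment their exact permutation p-values were 0.0952 and 0.0556. On that unadjusted measure both came under 0.05 with chromosomes centred (log2 -0.70 and -0.63, exact permutation p = 0.00794 for each) and without wild-type replicate 2 (log2 -0.27 and -0.32, exact permutation p = 0.0159 and 0.0476). Psmb10 over Psmb6 did so without ΔFOXC2 replicate 1 or 3 as well (log2 -0.32 and -0.31, exact permutation p = 0.0397 for each), all without adjustment over the ratios.

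**Figure D3:**
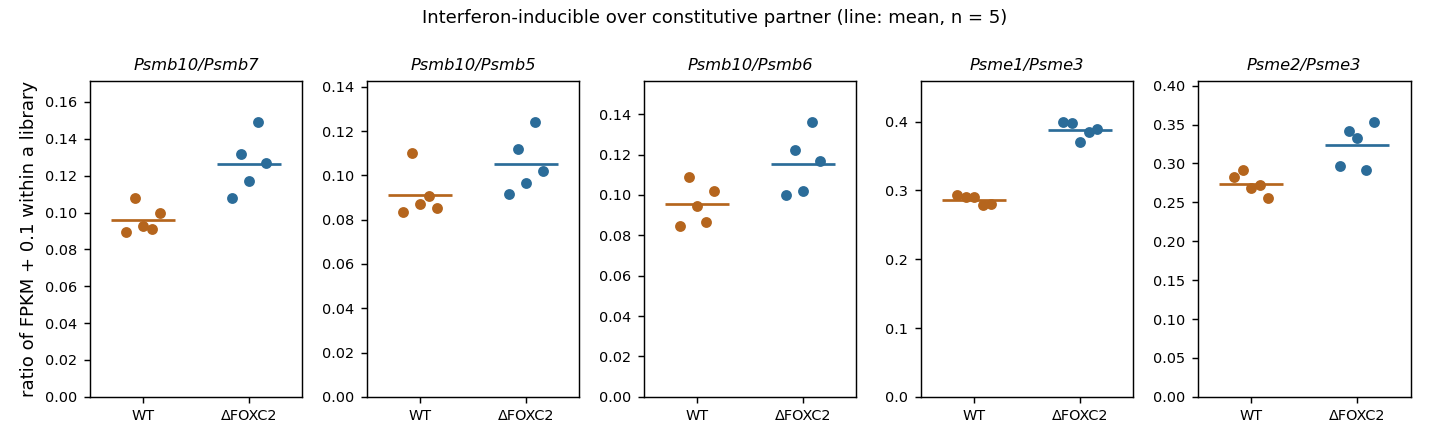
Ratio of FPKM + 0.1 of an inducible gene to a constitutive gene within each library (vertical axes, from 0), with points for the 5 libraries a group and lines for means. Psme1 over Psme3 is 0.279 to 0.294 in the wild type and 0.371 to 0.399 in ΔFOXC2 cells. The ratios of Psmb10 to Psmb5, Psmb6 and Psmb7 and of Psme2 to Psme3 overlap or meet between groups.

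The 3 inducible genes analysed lay below the median constitutive subunit in every library of both lines. Set against the median constitutive subunit of the same library, Psmb10 was at 7.89% to 9.41% in the wild type and 8.99% to 12.3% in ΔFOXC2 cells. Psme1 was at 35.7% to 40.5% in the wild type and 48.4% to 53.1% in ΔFOXC2 cells. Psme2 was at 34.4% to 38.6% and 38.8% to 46.7%. The groups of Psme1 and, narrowly, those of Psme2 were separate on this measure too, and those of Psmb10 overlapped. The constitutive subunits had a median log2 difference of 0.11 themselves, which enters this measure.

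The 250 bases before the RefSeq starts (GRCm38.p6) of the members were searched on both strands for short motifs. The first was the core of an interferon-stimulated response element, GAAA followed by any 2 bases and GAAA again. Promoters were on hand for 37 of the 44 members. None of the windows of the inducible genes held these letters, the second of 2 starts of Psme2 (chr14:55591022-55591271, minus strand, not shown) included. They occurred in 2.98% of all 32841 promoter windows and in 3 of the 40 member windows. Those were the windows of the structural subunit Psmb3, the ubiquitin receptor Psmd4 and the chaperone Psmd9. The Psme1 window lies inside the gene as annotated, which starts at 55578123, so the bases before that start were not searched. One window of each inducible gene is shown with those of the constitutive subunits Psmb3 and Psmd4, 5′ to 3′ on the gene's strand and ending at the base before the start, with the match in capitals as it reads on that strand.
Psmb10 promoter (chr8:105938393-105938642, minus strand): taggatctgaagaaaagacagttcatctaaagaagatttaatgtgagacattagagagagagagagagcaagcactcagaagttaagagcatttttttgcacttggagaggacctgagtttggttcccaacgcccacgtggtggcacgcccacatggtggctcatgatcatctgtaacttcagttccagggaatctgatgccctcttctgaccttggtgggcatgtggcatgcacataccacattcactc
Psme1 promoter (chr14:55578244-55578493, plus strand): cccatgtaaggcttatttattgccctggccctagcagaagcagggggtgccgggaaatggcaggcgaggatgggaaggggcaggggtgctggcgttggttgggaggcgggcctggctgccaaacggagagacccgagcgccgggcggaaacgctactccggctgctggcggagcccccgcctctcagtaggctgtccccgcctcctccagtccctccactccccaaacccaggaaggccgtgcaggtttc
Psme2 promoter (chr14:55591102-55591351, minus strand): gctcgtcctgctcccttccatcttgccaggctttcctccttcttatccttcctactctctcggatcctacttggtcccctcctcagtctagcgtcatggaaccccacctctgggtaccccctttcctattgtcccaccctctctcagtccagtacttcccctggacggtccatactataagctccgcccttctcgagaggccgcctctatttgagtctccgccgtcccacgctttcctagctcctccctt
Psmb3 promoter (chr11:97703184-97703433, plus strand): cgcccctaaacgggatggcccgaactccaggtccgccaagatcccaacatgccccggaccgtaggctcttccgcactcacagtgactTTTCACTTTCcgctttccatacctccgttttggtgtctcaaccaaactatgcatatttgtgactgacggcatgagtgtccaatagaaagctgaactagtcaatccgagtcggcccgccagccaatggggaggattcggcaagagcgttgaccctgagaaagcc
Psmd4 promoter (chr3:95042615-95042864, minus strand): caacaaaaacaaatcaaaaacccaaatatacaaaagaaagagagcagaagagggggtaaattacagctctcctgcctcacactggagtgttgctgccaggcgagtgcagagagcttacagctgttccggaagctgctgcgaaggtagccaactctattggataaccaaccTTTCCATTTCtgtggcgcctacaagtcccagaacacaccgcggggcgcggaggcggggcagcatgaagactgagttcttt
In Psmb3 the match lay 154 to 163 bases before the start and in Psmd4 71 to 80 bases. Psmb3 was higher in the wild type (log2 0.19) and Psmd4 did not pass (log2 0.08, adjusted p = 0.275). An interferon-gamma activated site, TTCNNNGAA, was found in 7.02% of all windows and in 1 of the 40 member windows, that of the core chaperone Psmg1. An antioxidant response core, TGANNNNGC, the kind of element that NRF1 binds, was found in 16 of the 40 member windows (15 of the 37 members) and in 35.2% of all windows. No match says only that these letters are missing from this window.

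The constitutive catalytic subunits showed no difference that passed. Psmb5, the chymotrypsin-like beta5 subunit on chromosome 14, had 66.8, 49.9, 57.7, 51.8 and 60.9 FPKM in wild-type libraries and 58.8, 59.8, 60.5, 60.0 and 63.0 in ΔFOXC2 cells (log2 -0.08, 95% interval -0.24 to 0.07). Psmb6, the caspase-like beta1 subunit, had 65.7, 50.6, 53.3, 54.4 and 50.7 FPKM against 53.7, 54.7, 57.4, 55.0 and 55.3 (log2 -0.01, 95% interval -0.16 to 0.13). Psmb7, the trypsin-like beta2 subunit, had 62.3, 51.0, 54.2, 51.6 and 52.0 FPKM against 49.8, 50.8, 50.1, 50.1 and 50.7. Psmb7 overlaps Nek6 on the opposite strand. Its groups did not overlap, yet the difference did not pass (log2 0.10, adjusted p = 0.125), with wild-type replicate 1 well above the rest. In all 3 genes the wild-type libraries spread more widely than the ΔFOXC2 libraries, with SDs of 4.66 to 6.85 against 0.404 to 1.598 FPKM.

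The alpha ring, which gates entry to the core, was higher in the wild type in 4 of 6 measured subunits, and all 6 differences were above 0. Of all tested genes, 20.8% were higher at any fold and 51.1% had a difference above 0. Mean levels over the 10 libraries differed widely between these partners, from 42.6 FPKM for Psma2 to 153 for Psma6. Psma5 had 82.7, 72.5, 74.8, 76.0 and 72.7 FPKM in wild-type libraries and 65.8, 62.8, 66.2, 67.0 and 65.1 in ΔFOXC2 cells. No library of Psma5 crossed between groups (log2 0.21, SE 0.040, adjusted p = 0.00144). Psma1 (log2 0.15), Psma3 (log2 0.16) and Psma6 (log2 0.12) were higher too, with groups that did not overlap, as for 14.9% of all tested genes. Psma2 (log2 0.11, adjusted p = 0.0618) and Psma4 (log2 0.10, adjusted p = 0.150) did not pass; dropping wild-type replicate 5 (adjusted p = 0.0381) or ΔFOXC2 replicate 1 (0.0471) brought Psma2 past the threshold. With chromosomes centred, the calls of Psma3 (adjusted p = 0.0704) and Psma6 (0.0814) were lost. Of the 4 structural beta subunits, Psmb3 was higher (41.9 ± 3.27 against 36.6 ± 1.95 FPKM, SD, n = 5) and Psmb1 (log2 0.07), Psmb2 (log2 -0.01) and Psmb4 (log2 0.02) did not pass.

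In the base of the 19S cap, 5 of the 6 ATPases that unfold substrates were higher in the wild type, against 20.8% of all tested genes. Psmc2 had 30.6, 27.9, 27.9, 28.1 and 28.4 FPKM in wild-type libraries and 23.1, 22.5, 26.2, 25.5 and 23.2 in ΔFOXC2 cells (log2 0.25, SE 0.051, adjusted p = 0.00239). The groups of Psmc2 were separate. Psmc1 (log2 0.11), Psmc3 (log2 0.15), Psmc4 (log2 0.12) and Psmc5 (log2 0.12) were higher as well, and Psmc6 was not (log2 -0.02, adjusted p = 0.801). The calls of Psmc4 and Psmc5 were marginal. That of Psmc4 was lost without any 1 of 7 libraries, all but wild-type replicates 1 and 2 and ΔFOXC2 replicate 3 (adjusted p = 0.0517 to 0.0898), and with chromosomes centred (0.0599). That of Psmc5 was lost without any 1 of 8, all but wild-type replicate 5 and ΔFOXC2 replicate 3 (adjusted p = 0.0618 to 0.1145), and with median-of-ratios scaling (0.0552). Both calls were lost when the variances were fitted without a trend (adjusted p = 0.0721 and 0.0823), and that of Psmc1 with chromosomes centred (adjusted p = 0.116). Of the non-ATPases of the base, the scaffold Psmd2 had 79.95, 79.8, 78.8, 79.3 and 79.4 FPKM in wild-type libraries and 70.9, 70.7, 74.9, 72.7 and 71.9 in ΔFOXC2 cells. Its groups were separate and its wild-type libraries nearly identical (log2 0.14, SE 0.027, adjusted p = 0.00178). Psmd4 and the scaffold Psmd1 (log2 -0.06, adjusted p = 0.312) did not pass. Psmd1 lies on chromosome 1, whose tested genes had a median of -0.26, and with chromosomes centred it was higher in the wild type (log2 0.21, adjusted p = 0.00505).

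In the lid, which carries the deubiquitinase, 3 of 8 subunits were higher and none was lower by limma (4 had a p of 0.05 or less before adjustment, of which Psmd8 was the lower one). Of all tested genes, 20.8% were higher, 20.7% were lower and 49.4% had such a p before adjustment. Psmd7, the partner of the deubiquitinase Psmd14, had the largest difference of all tested members (ENSMUSG00000039067.5, chromosome 8, 107580381 to 107588464, minus strand). It had 155, 145, 152, 153 and 137 FPKM in wild-type libraries and 101, 97.0, 106, 101 and 102 in ΔFOXC2 cells. The groups were far apart (log2 0.55, 95% interval 0.46 to 0.63, adjusted p = 1.50e-06), and the fold of 1.46 stayed just under 1.5. Its neighbours were shifted the same way: 96 tested genes within 5 Mb had a median of 0.40, and 19 of them exceeded Psmd7. With chromosomes centred the difference of Psmd7 was 0.19 (adjusted p = 0.00306), and how far the chromosome accounts for it was not tested. Without Psmd7, 13 of the other 29 constitutive subunits were higher and the median remained 0.11.

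**Figure D4:**
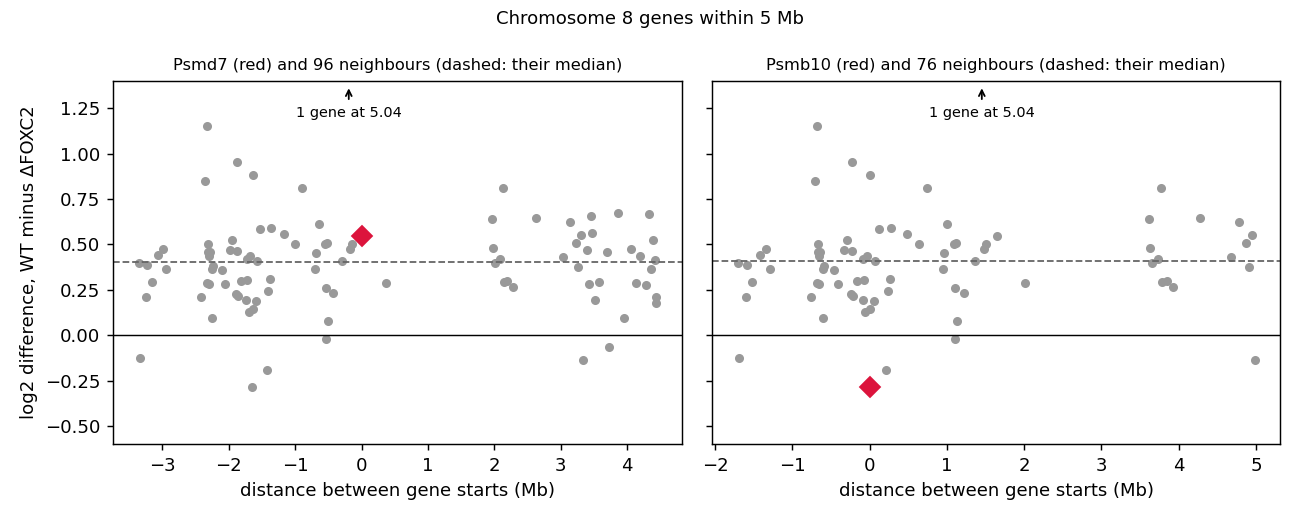
Log2 difference (wild type minus ΔFOXC2, vertical axis) of tested chromosome 8 genes against the distance of their start from that of Psmd7 (left, 96 neighbours) or Psmb10 (right, 76 neighbours), with dashed lines at the neighbours' medians of 0.40 and 0.41. Psmd7 lies among its neighbours, and Psmb10 lies below all of its own; 1 gene at 5.04 is beyond the axis.

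Psmd14, the deubiquitinase that clips ubiquitin chains off the substrate, had 60.7, 56.9, 55.5, 58.7 and 56.9 FPKM in wild-type libraries and 47.7, 49.9, 51.6, 50.8 and 52.7 in ΔFOXC2 cells. Its groups did not overlap (log2 0.19, SE 0.037, adjusted p = 0.00162). Psmd12 was higher (log2 0.13, adjusted p = 0.0390), and dropping wild-type replicate 4 or ΔFOXC2 replicate 1, 2 or 3 ended its call (adjusted p = 0.0631 to 0.0849), as did variances without a trend (0.0646). Psmd6 (log2 -0.00265), Psmd11 (log2 0.18), Psmd13 (log2 0.0044) and Psmd8 (log2 -0.17, adjusted p = 0.0764) did not pass. Psmd11 passed without wild-type replicate 3 (adjusted p = 0.0341), and Psmd8 as lower in the wild type without wild-type replicate 1 (0.0276) or ΔFOXC2 replicate 3 (0.0423) and with chromosomes centred (0.0485). With chromosomes centred Psmd6, on chromosome 14, was higher (log2 0.14, adjusted p = 0.0422).

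Psmd3, a lid scaffold on chromosome 11, took one of 2 levels in each library. In the wild type it had 20.8, 19.9, 37.2, 20.9 and 20.9 FPKM, and in ΔFOXC2 cells 32.9, 32.9, 35.6, 32.9 and 18.3. Wild-type replicate 3 lay at the ΔFOXC2 level and ΔFOXC2 replicate 5 at the wild-type level, and the difference did not pass (log2 -0.36, 95% interval -0.81 to 0.10). It passed as lower in the wild type without wild-type replicate 3 (log2 -0.53, adjusted p = 0.0311) or ΔFOXC2 replicate 5 (log2 -0.53, adjusted p = 0.0272). Psmd3 is described here for this pattern, which was seen in its values.

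Among the activators not tied to interferon, Psme3, the nuclear PA28 gamma, had 80.5, 77.5, 80.9, 79.0 and 82.1 FPKM in wild-type libraries and 78.3, 78.9, 80.3, 81.1 and 81.3 in ΔFOXC2 cells. The ranges coincided, and the 95% interval of the log2 difference was -0.06 to 0.06. Psme4, the large activator PA200, had 21.0, 24.0, 23.9, 24.0 and 22.6 FPKM in wild-type libraries and 19.02, 19.5, 21.1, 19.6 and 19.97 in ΔFOXC2 cells. It was higher in the wild type (log2 0.22, SE 0.048, adjusted p = 0.00363), with ranges that just met at wild-type replicate 1 and ΔFOXC2 replicate 3. Psme2b, a single-exon copy of Psme2 on chromosome 11, was under the filter at 0.487 to 0.728 FPKM in wild-type libraries and 0.279 to 0.508 in ΔFOXC2 cells. It lies within the gene Gm12185 on the same strand, so its value is uncertain. Tested without the filter, Psme2b had a log2 difference of 0.53 (limma, adjusted p = 0.0294). No listed gene averaged under 0.5 FPKM in both groups, so a listed gene under the filter had to be higher in 1 group. For Psme2b that group was the wild type (mean 0.598, against 0.386). The test therefore cannot decide whether Psme2b differs, and no direction is given for it.

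Of the chaperones that assemble the cap, Psmd10 (gankyrin, chromosome X) had 27.03, 23.3, 28.4, 25.4 and 24.3 FPKM in wild-type libraries and 18.1, 19.3, 21.7, 20.7 and 21.0 in ΔFOXC2 cells. Its groups were separate (log2 0.35, SE 0.065, adjusted p = 0.00136), and its difference was the second largest among the higher members. Psmd9 was higher at a low level, 4.83 ± 0.260 against 4.30 ± 0.194 FPKM, and its call was lost without any 1 of 6 libraries (wild-type replicates 1, 3 and 5 and ΔFOXC2 replicates 3, 4 and 5, adjusted p = 0.0697 to 0.0801) and with chromosomes centred (0.127). Psmd5 did not pass (log2 -0.08). Of the chaperones of the core, Psmg4 was higher (96.2 ± 8.11 against 85.2 ± 2.35 FPKM), and dropping wild-type replicate 4 or 5 or ΔFOXC2 replicate 5 (adjusted p = 0.0511 to 0.0580) or centring chromosomes (0.0816) ended its call. Psmg1 (log2 0.06), Psmg2 (log2 0.10) and Psmg3 (log2 0.16, adjusted p = 0.0694) did not pass, and Psmg3 passed without wild-type replicate 2 (0.0451). Psmc3ip matches by symbol only: it encodes a cofactor of meiotic recombination, and its difference did not pass (log2 -0.09, adjusted p = 0.234).

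Wild-type replicate 1 stood apart for the constitutive subunits. It was the highest of the 5 wild-type libraries in 27 of the 30, where it was the highest in 29.2% of all tested genes. Its median deviation from the genes' means was 0.16 on the log2 scale, against -0.0003 to 0.05 in the other wild-type libraries and -0.09 to -0.02 in ΔFOXC2 libraries. Nfe2l1, which encodes NRF1, the transcription factor that raises proteasome subunit genes when the protease is inhibited, had 33.8 FPKM in this library, 14.8 to 15.9 in the other wild-type libraries and 11.8 to 15.7 in ΔFOXC2 cells. The part of either in the result was not tested. Without wild-type replicate 1, 13 constitutive subunits were higher, 1 (Psmd8) was lower, the median was 0.09 and all 3 inducible genes were still lower. In that fit 2213 of all 10570 tested genes were higher at any fold and 2187 were lower.

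**Figure D5:**
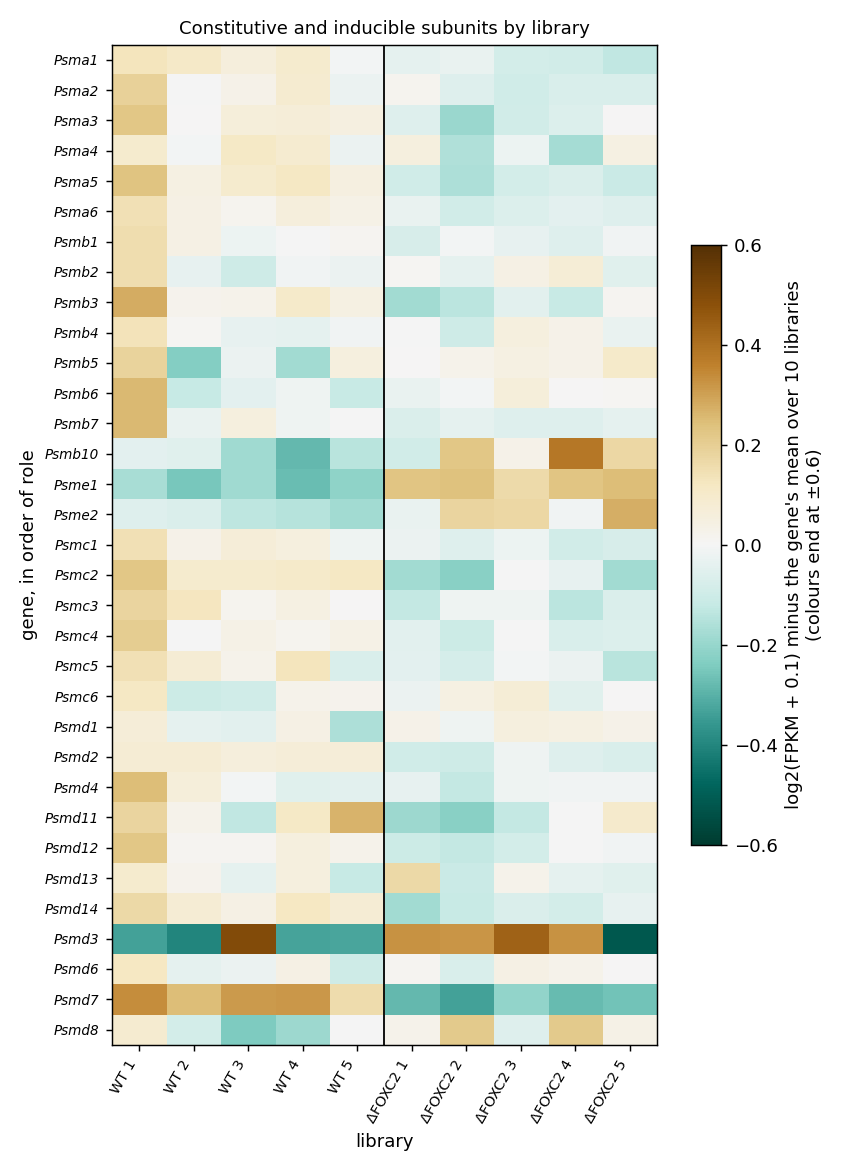
Deviation of log2(FPKM + 0.1) from the gene's mean over the 10 libraries (colour, brown above and green below) for the 30 constitutive and 3 inducible genes (rows) in each library (columns). Psmb10, Psme1 and Psme2 run against most rows, wild-type replicate 1 is brown in most constitutive genes, and Psmd3 changes colour in wild-type replicate 3 and ΔFOXC2 replicate 5.

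Genes that supply or regulate the proteasome showed few differences. Of 26 partners (ubiquitin genes, shuttle factors, the maturation factor Pomp, NRF1 and its processing enzymes among them), 4 (15.4%) were higher and 3 (11.5%) lower in the wild type at any fold, against 20.8% and 20.7% of all tested genes. By limma 0 reached 1.5-fold as well, and 7 had a p of 0.05 or less before adjustment, against 49.4% of all tested genes. Their median was 0.04. The shuttle factor Ubqln4, on chromosome 3, had 21.7 ± 0.921 against 17.7 ± 0.685 FPKM (log2 0.30). Its relative Ubqln2, on chromosome X, had 6.58 ± 0.304 against 4.86 ± 0.418 FPKM (log2 0.43), and the unfolding ATPase Vcp 90.6 ± 3.66 against 83.8 ± 1.66 (log2 0.11). Fbxo7, a ubiquitin ligase subunit that binds the proteasome regulator PI31, had 8.95 ± 0.5496 against 11.3 ± 0.613 FPKM (log2 -0.33). The polyubiquitin gene Ubb (log2 -0.13) and the zinc finger gene Zfand5 (log2 -0.10) were lower too. Of 11 class I antigen processing genes and interferon regulators, 5 (45.5%) were lower and 2 (18.2%) higher at any fold, against 20.7% and 20.8% of all tested genes. By limma 0 reached 1.5-fold as well, 9 had a p of 0.05 or less before adjustment (49.4% of all tested genes), and the median of the 11 was -0.16. Another 4 genes of that list were not analysed here. Tapbp, the peptide-loading chaperone tapasin, had 8.15 ± 0.889 against 12.2 ± 1.39 FPKM (log2 -0.57), its relative Tapbpl a log2 of -0.45 and the class I light chain B2m -0.42. Both higher members, Irf2 (log2 0.45) and Calr (log2 0.40), lie on chromosome 8, whose tested genes had a median of 0.36.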

How the data were processed

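RNA of 5 wild-type and 5 ΔFOXC2 samples was sequenced for 150 cycles from both ends. Poly(A) selection and a strand-marking library kit came before, all per the labels' protocols. The authors deposited FPKM values of protein-coding genes. Build GRCm38 and, with no version, StringTie, HISAT2, cutadapt and FastQC are named per the submitters' processing notes. Of 699 genes averaging under 1 FPKM, no more than 5 shared a ratio (to 4 digits) in any pair of libraries, so read counts were not recovered and depth is unknown. FPKM divides by all mapped fragments, so a large change in abundant genes moves every other value; the 20 most abundant genes held 9.54% to 10.5% of a library's sum. Reads shared with near-identical copies may be split between genes, as may those of Psma2, Psma3, Psmc3, Psmd1 and Psmd9, which each overlap another annotated gene over several kilobases. The same holds for Psmg3, which Gm26938 overlaps over 2816 bases on the same strand.

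Genes averaging 0.5 FPKM or more (10570 of 10735; 43 of 44 members) were fitted with limma 3.58.1 in R 4.3.3 on log2(FPKM + 0.1), using lmFit and eBayes with a variance trend and no covariate; tests were two-sided. The scale understates changes of low genes. Calls needed an adjusted p (Benjamini-Hochberg) of 0.05 or less and 1.5-fold, the fold of the design text, and was described as higher or lower at the adjusted p alone. Ratios were tested by exact permutation over samples; those of Psmb8 and Psmb9 were not analysed here. The limma fit was tested on simulated data. Values in every library are given for the catalytic subunits, Psmb10, Psme1 to Psme4 and the 6 further members with the smallest adjusted p, with group values or differences for up to 3 genes per direction from each list; Psmd3 and Nfe2l1 were chosen after their values were seen. The partner list leaves out 2 genes that are not reported here. Members, lists and tests were chosen with earlier results of these data known. Alternatives were other pseudocounts (1 and 0.01), filters (none and 5 FPKM), scaling, variance models, a replicate block, centring of chromosomes, and leaving out each library. Promoters are from RefSeq on GRCm38.p6, matched by symbol.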

Additional observations from a re-analysis of the deposited data

Results flagged for a closer look

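Among 56 genes in 2 groups of 5 libraries, 16 of 112 groups held 1 library that stood far from the others. Chance alone flags about 1 group in 20 when groups are independent. Here the genes share their libraries, and Nfe2l1 was chosen after its values were seen, so that rate cannot be set beside the count. Of the 16 flagged groups, wild-type replicate 1 was the library apart in 10, always as the highest. Of the members, it had 58.6 FPKM for Psma3 (50.3 to 52.5 in the other wild-type libraries), 30.6 for Psmc2 (27.9 to 28.4), 80.2 for Psmc4 (69.5 to 71.4) and 65.7 for Psmb6 (50.6 to 54.4). It had 62.3 FPKM for Psmb7, 82.2 for Psmd12, 47.5 for Psmb3 and 65.5 for Psmb4. Of the partners and antigen processing genes, it had 278 FPKM for B2m (248 to 256) and 33.8 for Nfe2l1 (14.8 to 15.9).

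Psmd3 stood apart in wild-type replicate 3, at 37.2 FPKM, and in ΔFOXC2 replicate 5, at 18.3. Psmd5 had 9.66 FPKM in wild-type replicate 5, above 6.94 to 7.52 in the others. In ΔFOXC2 cells, Psme1 had 29.7 FPKM in replicate 3, below 31.2 to 31.5, and Psmd4 had 76.6 in replicate 2, below 81.8 to 83.1. Zfand5 had 19.8 FPKM in ΔFOXC2 replicate 5, above 18.9 to 19.1.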

How the results depend on the processing

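Of 816 values of single members under 19 alternatives, 728 kept their direction and their side of the adjusted p threshold, 44 lost the call with the same sign, 10 gained it with the same sign and 34 changed sign, of which 2 (Psmd1 and Psmd6 with chromosomes centred) then passed. The counts of members at any fold were within 1.5 times of 18 higher and 3 lower under every alternative run. Leaving out single libraries gave 14 to 18 and 2 to 4, against 1937 to 2213 higher and 1967 to 2187 lower of all 10570 tested genes. At 1.5-fold, 1 member (Psmb10) was called lower with chromosomes centred. Over all genes, 230 were called higher and 338 lower with a pseudocount of 1, and 123 and 217 with a filter at 5 FPKM, against 386 and 525. Of the antigen processing list, 1 was higher and 3 lower at any fold with the filter at 5 FPKM, 0 were higher with chromosomes centred, and 1 was called lower at 1.5-fold there and 0 to 1 without single libraries.

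The same replicate numbers did not pair the samples: correlations of deviations were 0.137, -0.121, 0.0521, 0.0858 and 0.114 for numbers 1 to 5, and not every sample correlated best with its own number. With the replicate number as a block, 17 members were higher and 2 lower at any fold, Psmb10 missed the threshold (adjusted p = 0.0539), as did Psmd9 (0.0633) and Psmd12 (0.0622), and Psma2 passed (0.0389). A paired exact permutation of the ratios cannot go below p = 0.0625, the value found for Psmb10 over Psmb7 (log2 -0.39), Psme1 over Psme3 (-0.44) and Psme2 over Psme3 (-0.24), which says nothing about their stability. Without single libraries, Psmb10 over Psmb7 was -0.44 to -0.33, Psme1 over Psme3 -0.45 to -0.43, Psme2 over Psme3 -0.27 to -0.20, Psmb10 over Psmb5 -0.27 to -0.14 and Psmb10 over Psmb6 -0.32 to -0.21. With chromosomes centred, Psmb10 over Psmb5 was -0.70, over Psmb6 -0.63 and Psme2 over Psme3 -0.0926.

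The sign changes were in members near 0. With chromosomes centred the log2 difference was 0.13 for Psmc6, 0.0636 for Psmb5, -0.0127 for Psmd13, 0.14 for Psmd6, 0.21 for Psmd1 and -0.0146 for Psmb4, and with median-of-ratios scaling -0.0027 for Psme3. Without single libraries it was -0.0472 to 0.008 for Psmc6, -0.0803 to 0.0133 for Psmb6, -0.0479 to 0.0156 for Psmb2, -0.0101 to 0.037 for Psmb4, -0.0231 to 0.0469 for Psmd13, -0.0334 to 0.0222 for Psmd6, -0.0088 to 0.012 for Psme3 and -0.17 to 0.019 for Psmd5. Centring subtracts the chromosome's own shift by construction; the cause of the other changes was not tested. With depth unknown, counting error cannot be set beside these differences.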
